A study of Mus musculus with 6 samples.

Results

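The genes described here encode subunits of the respiratory chain, cytochrome c and ATP synthase in the nucleus of the mouse. They were chosen as all protein-coding genes of GENCODE mouse release 21 whose symbols match set patterns for complexes I to IV and ATP synthase, with Cycs and Cyct added. Subunits with other symbols are left out. Each gene was counted as a subunit and placed in a complex by its symbol alone, Atp5s and Cox7a2l included. The rule finds 87 genes of the 55536 in the files, with 37 in complex I, 4 in complex II, 8 in complex III, 15 in complex IV and 18 in ATP synthase. Cycs, the somatic cytochrome c, stands alone, and 4 isoforms made in the testis (Cox6b2, Cox7b2, Cox8c and Cyct) are kept apart from the complexes they join. The genes were selected on their difference between KOStra8 and HETStra8 testes as well, since this group was proposed with that contrast known, so the differences between genotypes are given below as a description. The symbol Atp5o has 2 gene identifiers, and the second had 0 counts in all 6 libraries. Its exons overlap those of the first and of Donson on the same strand. Of its 50-base stretches, 89.8% also occur in other genes, so the 0 does not show that it is silent.

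Each library was made from poly(A)+ RNA of the testis of 1 mouse aged 7 weeks, and each genotype had 3 mice. The KOStra8 mice carried a floxed and a deleted Sel1L allele (Sel1L flox/∆) with Stra8-Cre, a Cre recombinase under the promoter of Stra8, which is active in male germ cells. The sample record gives the HETStra8 mice as Sel1L flox/∆ littermates and names no Cre, while the study's text pools flox/∆ mice with Sel1L flox/+ mice that carry Stra8-Cre, so all 6 mice carry a floxed allele and the genotype of each control mouse is not given. In the study's stainings of KOStra8 testes, SEL1L protein was unaffected in Sertoli cells and still seen in spermatogonia. For spermatogonia the study cites an earlier report that this Cre is only partly active there. Library totals lay between 28875108 and 36526695 counts. Sel1l itself was at 49.3, 47.6 and 42.4 CPM (counts scaled to a common library size) in HETStra8 mice and at 24.2, 22.0 and 20.3 CPM in KOStra8 mice, always given in the order of the mouse numbers 1 to 3. As a check of the tissue, none of the 8 markers of pachytene and diplotene spermatocytes, the 8 of round spermatids or the 9 of elongating spermatids was at 0.

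The respiratory chain passes electrons from NADH through complex I, or from succinate through complex II, to complex III, and cytochrome c carries them on to complex IV, where oxygen is reduced. Complexes I, III and IV pump protons across the inner mitochondrial membrane, and ATP synthase uses the return flow to make ATP. Most subunits are encoded in the nucleus and a few core ones in mitochondrial DNA. Male germ cells replace several subunits with isoforms of their own during meiosis and spermiogenesis, and the sperm midpiece is packed with mitochondria.

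Promoters of 4 genes are shown because they belong to a pair of isoforms that differ in level (Cycs and Cyct), to the counterpart of the most abundant isoform (Cox8a) and to the gene with the lowest log2 fold change (Atp5g2). Each runs 5′ to 3′ from 250 bases before to 50 bases after a RefSeq start in GRCm38.p6, and capitals mark matches to the motifs described next.
Cycs (chr6:50566520-50566819, minus strand): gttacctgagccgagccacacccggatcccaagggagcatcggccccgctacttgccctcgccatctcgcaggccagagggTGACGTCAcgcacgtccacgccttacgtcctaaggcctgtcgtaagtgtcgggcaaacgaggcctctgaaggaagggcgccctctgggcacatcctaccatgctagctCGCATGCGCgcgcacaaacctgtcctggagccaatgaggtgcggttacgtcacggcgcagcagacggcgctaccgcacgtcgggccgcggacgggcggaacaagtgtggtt
Cyct (chr2:76360404-76360703, minus strand): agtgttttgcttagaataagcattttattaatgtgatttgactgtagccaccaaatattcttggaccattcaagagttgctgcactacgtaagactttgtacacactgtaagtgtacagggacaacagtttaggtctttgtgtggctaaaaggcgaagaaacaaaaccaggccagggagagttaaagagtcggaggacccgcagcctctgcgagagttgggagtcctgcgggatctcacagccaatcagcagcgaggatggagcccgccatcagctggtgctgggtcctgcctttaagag
Cox8a (chr19:7217567-7217866, minus strand): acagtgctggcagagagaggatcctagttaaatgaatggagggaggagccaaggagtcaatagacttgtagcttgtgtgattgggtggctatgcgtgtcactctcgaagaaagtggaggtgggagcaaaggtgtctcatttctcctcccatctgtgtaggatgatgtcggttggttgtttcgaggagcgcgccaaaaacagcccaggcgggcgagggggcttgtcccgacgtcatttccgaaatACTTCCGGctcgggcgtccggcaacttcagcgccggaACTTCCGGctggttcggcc
Atp5g2 (chr15:102670998-102671297, minus strand): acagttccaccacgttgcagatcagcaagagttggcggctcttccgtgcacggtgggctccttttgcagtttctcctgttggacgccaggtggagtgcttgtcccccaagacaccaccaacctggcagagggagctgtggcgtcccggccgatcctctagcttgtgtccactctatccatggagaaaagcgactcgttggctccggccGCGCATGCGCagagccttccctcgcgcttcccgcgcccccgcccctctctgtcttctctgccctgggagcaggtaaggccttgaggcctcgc
The Atp5g2 window follows a RefSeq start that lies 1305 bases from the start of the gene in GENCODE. A promoter of this kind was found for 70 of the 87 genes, and Cox8c was not among them. They were searched on both strands for 4 motifs by their letters: GCGCATGCG for NRF1, CCGGAAGT for the ETS factors that include GABPA, AAGATGGCG for YY1 and TGACGTCA for the cAMP response element (CRE). NRF1, GABPA and YY1 are known regulators of genes for mitochondrial proteins. The NRF1 motif was in 9 of the 70 promoters (12.9%) and in 1.75% of all 32817 promoters. The YY1 motif was in 6 (8.57%) against 1.40%, the CRE in 5 (7.14%) against 1.79%, and the ETS motif in 5 (7.14%) against 3.89%. No 2 different motifs overlapped in these promoters, and 22 of the 70 held at least 1 of them. Base composition differed too, with a median GC content of 57.2% in these promoters and 52.7% in all promoters. Cycs held an NRF1 motif and a CRE in a window with 65.0% GC and 32 CG pairs, whereas its testis counterpart Cyct held none of the 4 motifs in a window with 48.3% GC and 8 CG pairs. The windows of Cox6b2 and Cox7b2 held none of the 4 either, and neither did those of Cox6b1 and Cox7b.

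Levels of different genes were compared as TPM, in which counts are divided by the length of each gene's exons and scaled to the same total in every library. The 87 genes together took 10091, 9437 and 9138 TPM in HETStra8 and 9006, 9520 and 8676 TPM in KOStra8 mice. The 2 ranges overlapped, since KOStra8 mouse 2 was above HETStra8 mice 2 and 3. The 4 testis isoforms alone made up 21.8% to 24.0% of that sum, complex I 28.2% to 29.0%, ATP synthase 16.5% to 17.2%, complex IV 15.8% to 16.6%, complex III 11.2% to 11.8% and complex II 3.27% to 3.62%. Of all 87 genes, 30 had a mean above 100 TPM and 7 had one below 10 TPM.

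**Figure D1:**
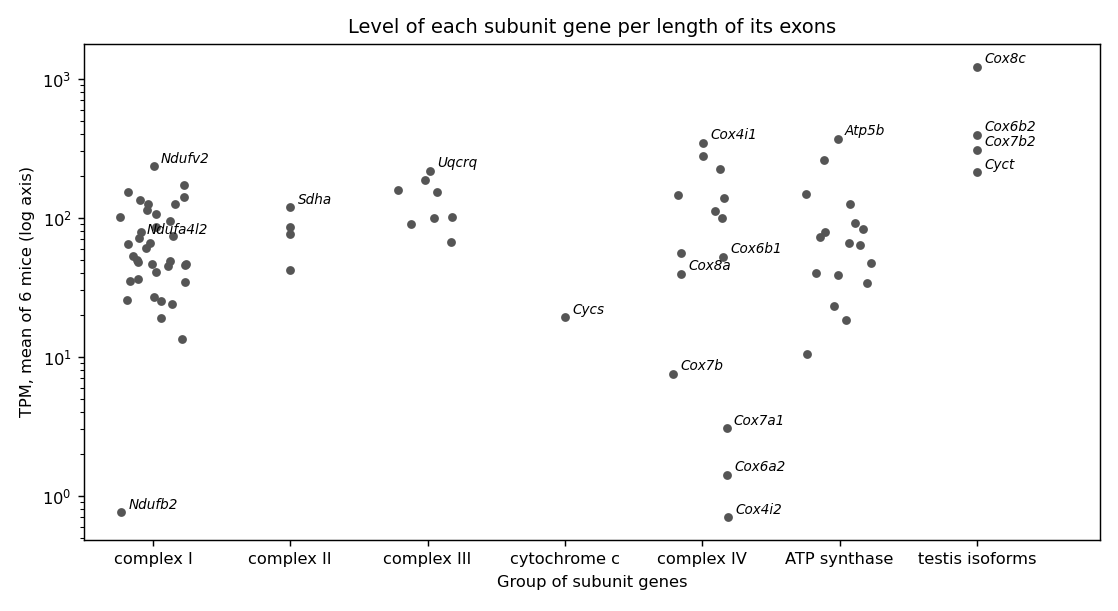
Mean TPM over 6 mice (log axis) of each gene, 1 point per gene, by complex. Cox8b and the second Atp5o identifier are left out because they had 0 counts. The 4 testis isoforms lie between 212 and 1225 TPM, above their counterparts Cycs, Cox7b, Cox8a and Cox6b1.

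The testis isoforms were the more abundant form in every mouse. COX8C, COX7B2 and COX6B2 take the places of COX8A, COX7B and COX6B1 in complex IV, and CYCT takes the place of somatic cytochrome c. Cox8c (chr12:102899316-102900526 in GRCm38, plus strand) was the highest of the 87 genes, at 1335, 1212 and 1206 TPM in HETStra8 and 1197, 1307 and 1096 TPM in KOStra8 mice. It ranked 74th by TPM of the 21465 genes tested. Its counterpart Cox8a (chr19:7215153-7217616, minus strand) was at 48.9, 39.9 and 37.2 TPM and at 33.4, 43.0 and 35.4 TPM in the same mice.

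Cox6b2 (chr7:4751792-4753094, minus strand) was at 372, 412 and 406 TPM in HETStra8 and 399, 417 and 377 TPM in KOStra8 mice. Cox6b1 (chr7:30616861-30626151, minus strand) was at 60.9, 59.3 and 49.9 TPM and at 51.6, 50.3 and 43.6 TPM. The genotypes overlapped in both genes.

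Cox7b2 (chr5:71442824-71548205, minus strand) was at 276, 283 and 311 TPM in HETStra8 and 346, 315 and 319 TPM in KOStra8 mice. The gene it stands in for, Cox7b (chrX:106015700-106022450, plus strand), lay at 7.27, 8.02 and 8.35 TPM and at 7.06, 7.25 and 7.13 TPM. Cox7b is X-linked, like Ndufa1 and Ndufb11, and the X chromosome is silenced in male meiosis. Ndufa1 and Ndufb11 had means of 48.1 and 23.9 TPM, below the median of 60.2 TPM of the 35 autosomal genes of complex I. These autosomal genes ran from 0.760 to 235 TPM. Whether the place on the X chromosome bears on the levels of these genes was not tested.

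Cyct (chr2:76353942-76360450, minus strand) was at 214, 206 and 202 TPM in HETStra8 and 215, 233 and 203 TPM in KOStra8 mice. Cycs (chr6:50562563-50566538, minus strand) was at 18.5, 17.6 and 19.6 TPM and at 18.7, 19.5 and 21.7 TPM. For Cycs, 26.1% of the 50-base stretches of its transcripts also occur in other genes, most of them in Gm10053, which had 2 to 9 counts per library.

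Within a mouse, Cox7b2 exceeded Cox7b 35.3- to 49.1-fold, Cox8c exceeded Cox8a 27.3- to 35.9-fold, Cyct exceeded Cycs 9.37- to 12.0-fold and Cox6b2 exceeded Cox6b1 6.10- to 8.64-fold. With the length of the longest transcript in place of all exons, Cox6b2 exceeded Cox6b1 10.1- to 14.3-fold and Cyct exceeded Cycs 8.59- to 11.0-fold, so the order of these 2 pairs depended on the length used. Each of these ratios was above 1 in 6 of 6 mice. This is a description, since the rule that chose the genes names these isoforms. Another pair was Ndufa4l2, known from hypoxic cells, and Ndufa4. Ndufa4 is now counted to complex IV but is kept here with complex I by its symbol. Ndufa4l2 exceeded Ndufa4 2.97- to 4.53-fold, at 63.5 to 77.9 TPM against 16.1 to 22.3 TPM. Ndufa4l2 overlaps an exon of Shmt2 on the opposite strand, and Shmt2 had 257 to 341 counts against 761 to 937 on Ndufa4l2.

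**Figure D2:**
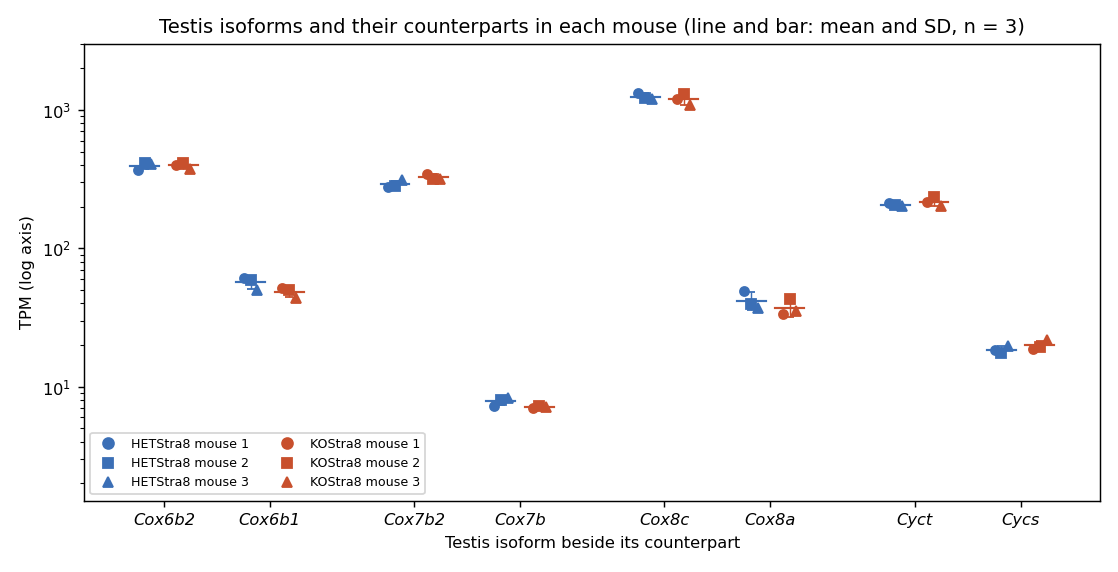
TPM (log axis) of the 4 testis isoforms beside their counterparts in each of 3 HETStra8 (blue) and 3 KOStra8 (red) mice, with the mean as a line and the SD as a bar. Each isoform lies above its counterpart in all 6 mice.

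The share of the testis isoform in its pair lay between 85.9% and 98.0% over all 4 pairs and 6 mice. Cox7b2 made up 97.4%, 97.2% and 97.4% of its pair in HETStra8 and 98.0%, 97.8% and 97.8% in KOStra8 mice, without overlap. Cox6b2 made up 85.9% to 89.1% in HETStra8 and 88.6% to 89.6% in KOStra8 mice. The share of Cox8c was 96.5% to 97.0% and 96.8% to 97.3%, and that of Cyct was 91.1% to 92.1% and 90.4% to 92.3%. The latter 3 ranges overlapped.

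Isoforms of other tissues were scarce. Cox6a2 and Cox7a1, the forms of striated muscle, had means of 1.42 and 3.06 TPM against 224 TPM for Cox6a1 and 277 TPM for Cox7a2. Cox4i2, a lung form that responds to oxygen, had 4, 13 and 3 counts in HETStra8 and 1, 10 and 4 counts in KOStra8 mice, and its mean of 0.701 TPM compares with 345 TPM for Cox4i1. Cox8b, the muscle form of COX8, had 0 counts in all 6 libraries, which allows up to 3 counts per library, or 0.0821 to 0.104 CPM. The 9 skeletal muscle markers summed to 4.23 to 6.98 CPM in HETStra8 and 4.30 to 6.25 CPM in KOStra8 mice.

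In complex I, which takes electrons from NADH, Ndufv2 was the most abundant gene at 228 to 246 TPM over the 6 mice. It encodes an iron-sulfur subunit of the NADH module. Ndufb2, an accessory subunit of the membrane arm that was picked out after its values were seen, had only 38 to 59 counts per library and a mean of 0.760 TPM. Its exons overlap those of other annotated genes, how reads there were assigned is not stated, and its level is uncertain. The other genes of complex I lay between 13.5 and 171 TPM. In complex II, Sdha, which binds the flavin of succinate dehydrogenase, was highest at 119 TPM and Sdhc, a membrane anchor, was lowest at 42.2 TPM. In complex III, the small subunit Uqcrq had 217 TPM, above the core protein Uqcrc1 at 187 TPM, and Uqcr11 was lowest with 67.1 TPM. With the longest transcript as the length, Uqcrc1 led with 252 TPM over 210 TPM for Uqcrq. In complex IV, Cox4i1 led with 345 TPM. In ATP synthase, Atp5b, the catalytic beta subunit, led with 369 TPM.

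The KOStra8 and HETStra8 testes were compared with the two-sided quasi-likelihood test of edgeR over all 21465 genes that passed its filter on low counts, with Benjamini-Hochberg adjustment. Of the 87 genes, 84 passed the filter, and Cox8b, Cox4i2 and the second Atp5o identifier did not. None of the 84 passed an adjusted p of 0.01 together with a fold of 2, where 0.00932% of all genes tested did, and none passed an adjusted p of 0.01 at any fold, where 0.0186% did, or one of 0.05, where 0.0233% did. The smallest adjusted p of the 84 was 0.224. All 84 log2 fold changes of KOStra8 over HETStra8 were between -0.45 and 0.16.

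At an unadjusted p of 0.05, 10 of the 84 genes were lower in KOStra8 testes, where 5.12% of all genes tested were, and 0 were higher, where 7.13% were. The DESeq2 and limma-voom tests gave 11 lower and 0 higher each, and none at an adjusted p of 0.01. The 10 genes were 5 of ATP synthase, 2 of complex I and 1 each of complexes II, III and IV. That count rests on single mice, with 2 genes without HETStra8 mouse 1, 25 without HETStra8 mouse 3, 3 without KOStra8 mouse 1 and 2 without KOStra8 mouse 3. In 15 of the 84 genes every KOStra8 mouse was below every HETStra8 mouse in CPM, where 8.43% of all genes were. In 2 others, Uqcrb and Cox7b2, every KOStra8 mouse was above every HETStra8 mouse, where 9.33% of all genes were.

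The median log2 fold change of the 84 genes was -0.14, a decrease of 9.18%, and 68 of them lay below 0. Over all genes tested the median was -0.01, and 51.5% lay below 0. Across all genes the log2 fold change went down with the GC content of the transcript (Spearman's rho = -0.46 over 21457 genes, which are not independent replicates), so each value was also computed after correcting the libraries for GC content and length of the transcripts. With the correction the median of the 84 genes was -0.11, 71 lay below 0, and 14 were lower and 0 higher at an unadjusted p of 0.05, where 3.76% and 3.86% of all genes were. Without HETStra8 mouse 1 the median was -0.07, and -0.05 with the correction as well. Bulk RNA cannot tell fewer cells of a type from less RNA per cell.

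HETStra8 mouse 1 stood apart in these genes. It had the highest level of the 6 mice in 56 of the 84 genes (66.7%), against 25.4% of all genes tested. It was lowest in 2 of the 84 (2.38%), against 24.7% of all genes tested. Both shares over all genes were the largest of the 6 mice, so this mouse stood apart beyond these genes too. KOStra8 mouse 3 was lowest in 37 (44.0%, against 17.4% of all genes), and KOStra8 mouse 1 was lowest in 30 (35.7%, against 15.2%). Relative to the HETStra8 mean of each gene, the median log2 CPM over the 84 genes was 0.11, -0.03 and -0.08 in HETStra8 and -0.16, -0.03 and -0.17 in KOStra8 mice. KOStra8 mouse 2 and HETStra8 mouse 2 were level, so the genotypes overlapped in this median. With the correction they also overlapped, since KOStra8 mouse 2 at -0.05 was above HETStra8 mouse 3 at -0.09. By group, the medians of complexes II and III were lower in every KOStra8 mouse with and without the correction. That of ATP synthase was so only without it. The medians of complexes I and IV, cytochrome c and the testis isoforms overlapped in both cases. For the 80 genes above 10 TPM, the highest mouse exceeded the lowest 1.26-fold in the median, near the 1.30-fold of all 10029 tested genes above that level.

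**Figure D3:**
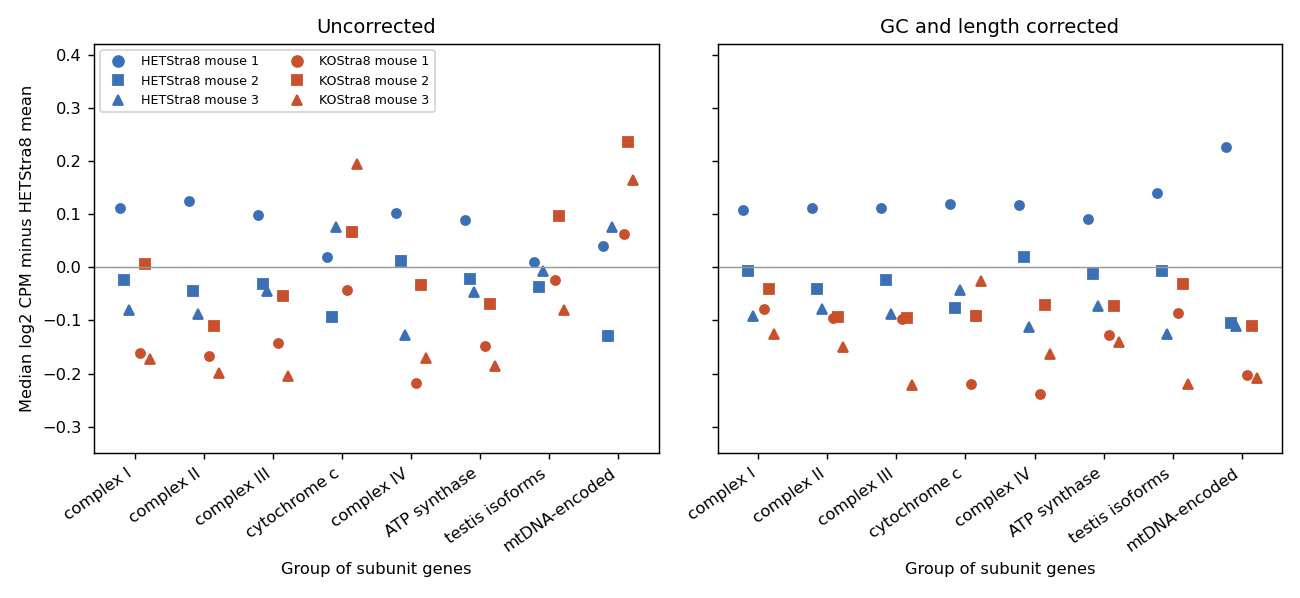
Median over the genes of each group of log2 CPM minus the HETStra8 mean of the gene, in each mouse, without (left) and with (right) the correction for GC content and length. HETStra8 mouse 1 is the highest mouse in complexes I to IV and ATP synthase in both panels, and the median of the genes of mitochondrial DNA (mtDNA) goes from above to below 0 in all 3 KOStra8 mice between the panels.

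Summed levels of some cell markers differed between the genotypes. The 8 Sertoli cell markers summed to 1235, 1058 and 1031 CPM in HETStra8 and 943, 980 and 856 CPM in KOStra8 mice, without overlap. All 8 had a log2 fold change below 0. Their median log2 fold change was -0.28, or -0.14 with the correction. The 8 Leydig cell markers summed to 835, 626 and 553 CPM and 599, 556 and 464 CPM, with overlap. All 8 were below 0, with a median of -0.29, or -0.25 with the correction. Also below 0 were 6 of 6 macrophage markers (median -0.37, or -0.31 with the correction), 5 of 5 of peritubular myoid cells (-0.21, or -0.16) and 4 of 5 of endothelial cells (-0.30, or -0.21), and their sums overlapped between the genotypes. HETStra8 mouse 1 had the highest sum for Sertoli, Leydig and peritubular myoid cells. For macrophages and endothelial cells the highest sum was that of HETStra8 mouse 2. The 6 markers of leptotene and zygotene spermatocytes summed to 195 to 267 CPM in HETStra8 and 272 to 302 CPM in KOStra8 mice, without overlap, and their median of 0.10 went to about 0 with the correction. The 9 markers of elongating spermatids summed to 15640 to 15710 CPM in HETStra8 and 13940 to 15660 CPM in KOStra8 mice, with overlap. Of these, 8 had a log2 fold change below 0, with a median of -0.07, or -0.03 with the correction. Below 0 were 5 of 8 markers of round spermatids (median -0.08, or -0.02) and 4 of 8 of pachytene and diplotene spermatocytes (-0.01, or -0.04). None of these markers was at 0 in all libraries, and their part in the differences of the subunit genes was not tested.

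In complex I, 30 of 37 genes had a log2 fold change below 0, with a median of -0.13, and -0.08 with the correction. The median was -0.05 without HETStra8 mouse 1, -0.07 without KOStra8 mouse 1 and -0.08 without KOStra8 mouse 3. The lowest was that of Ndufb11 (chrX:20615326-20617619, minus strand), an accessory subunit of the membrane arm, at 9.19, 8.05 and 6.87 CPM in HETStra8 and 5.44, 6.46 and 6.63 CPM in KOStra8 mice. The groups did not overlap, and the log2 fold change was -0.38 ± 0.17 (SE, 3 mice in each group). The highest was that of Ndufb5, another accessory subunit, at 59.1, 50.9 and 56.6 CPM and 59.2, 61.3 and 56.4 CPM, with a log2 fold change of 0.09 ± 0.09. Ndufv2 was at 168, 162 and 161 CPM and 161, 174 and 163 CPM, and its log2 fold change of 0.02 ± 0.07 turned to -0.15 with the correction.

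In complex II, all 4 genes lay below 0, with a median of -0.16, and -0.10 with the correction or -0.08 without HETStra8 mouse 1. Sdhd, a membrane anchor, was at 39.9, 37.2 and 35.4 CPM in HETStra8 and 31.7, 32.8 and 31.7 CPM in KOStra8 mice. The groups did not overlap, and the log2 fold change was -0.23 ± 0.09. Sdha was at 184, 164 and 157 CPM and 151, 156 and 154 CPM, also without overlap, and its log2 fold change was -0.13 ± 0.08, or -0.06 without HETStra8 mouse 1. Sdhc was at 50.5, 43.2 and 46.0 CPM and 45.0, 42.9 and 41.6 CPM, with overlap and a log2 fold change of -0.11 ± 0.09, or -0.05 without the same mouse.

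In complex III, 7 of 8 genes lay below 0, with a median of -0.15 with and without the correction. Uqcr10, a small subunit, was at 35.4, 29.1 and 32.3 CPM in HETStra8 and 23.6, 33.1 and 22.4 CPM in KOStra8 mice. KOStra8 mouse 2 lay among the controls, and the log2 fold change was -0.29 ± 0.14. Uqcrb, which belongs to the ubiquinone-binding region, was at 27.7, 27.2 and 28.7 CPM and 30.3, 29.6 and 30.2 CPM. Its groups did not overlap, and its log2 fold change of 0.11 ± 0.09 turned to -0.12 with the correction. For Uqcrb, 25.5% of its 50-base stretches also occur in other genes, most of them in Gm16089, a processed pseudogene. Uqcrq was at 143, 130 and 126 CPM and 124, 140 and 118 CPM, with overlap and a log2 fold change of -0.06 ± 0.08, or -0.02 with the correction.

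In complex IV, 12 of the 13 genes tested lay below 0, with a median of -0.17, and -0.14 with the correction. Cox4i1 was at 210, 178 and 166 CPM in HETStra8 and 156, 180 and 160 CPM in KOStra8 mice, and its log2 fold change was -0.16 ± 0.09 with overlap between the groups. It was -0.06 with the correction, and likewise -0.06 without HETStra8 mouse 1. The 2 ends of this complex were its rarest tested genes. Cox7a1 had 12, 33 and 15 counts in HETStra8 and 11, 21 and 13 counts in KOStra8 mice, and its log2 fold change of -0.39 ± 0.55 became 0.14 without HETStra8 mouse 2. Cox6a2 had 17, 12 and 0 counts and 1, 14 and 18 counts, and its log2 fold change of 0.16 ± 1.02 lay between -0.41 and 0.88 when single mice were left out. Both SEs are larger than the values they belong to. Among the counterparts of the testis isoforms, the log2 fold changes were -0.26 ± 0.14 for Cox6b1, -0.20 ± 0.17 for Cox8a and -0.17 ± 0.22 for Cox7b. With the correction they were -0.23, -0.11 and -0.34, which changed their order, and that of Cox8a was -0.07 without HETStra8 mouse 1.

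In ATP synthase, 13 of the 17 genes tested lay below 0, with a median of -0.16, and -0.15 with the correction. Atp5b was at 596, 536 and 505 CPM in HETStra8 and 476, 490 and 464 CPM in KOStra8 mice, without overlap, and its log2 fold change was -0.19 ± 0.07, or -0.12 with the correction and -0.13 without HETStra8 mouse 1. Atp5f1, a subunit of the peripheral stalk, was at 91.8, 82.4 and 86.3 CPM and 87.3, 94.5 and 89.3 CPM. Its log2 fold change of 0.06 ± 0.08 turned to -0.29 with the correction, and its transcripts have a GC content of 37.0%.

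The proteolipid ring of ATP synthase has 3 genes, Atp5g1, Atp5g2 and Atp5g3, which encode the same mature subunit behind different targeting peptides. Atp5g2 (chr15:102662864-102672352, minus strand) had the lowest log2 fold change of the 84 genes, at 16.0, 15.2 and 13.0 CPM in HETStra8 and 10.4, 11.1 and 10.9 CPM in KOStra8 mice. The groups did not overlap, and the log2 fold change was -0.45 ± 0.13, or -0.33 with the correction. Atp5g1 was at 33.8, 30.5 and 33.3 CPM and 26.4, 29.5 and 23.7 CPM, without overlap, with a log2 fold change of -0.30 ± 0.11. Atp5g3 was at 38.9, 33.1 and 35.3 CPM and 32.4, 34.0 and 29.9 CPM, with overlap and a log2 fold change of -0.16 ± 0.10. Per length, Atp5g3 made up 49.8% to 52.7% of the 3 in HETStra8 and 54.7% to 56.1% in KOStra8 mice. Atp5g2 made up 25.2% to 29.8% and 23.4% to 26.0%. Of the 50-base stretches of Atp5g2, 38.3% also occur in other genes, most of them in Gm10175, which had 1 count in all libraries together. The promoter of Atp5g2 shown above holds an NRF1 motif.

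The testis isoforms had a median log2 fold change of 0.01, which turned to -0.12 with the correction. Cox8c was at 205, 181 and 181 CPM in HETStra8 and 174, 197 and 162 CPM in KOStra8 mice, with a log2 fold change of -0.09 ± 0.09, or -0.11 with the correction and -0.03 without HETStra8 mouse 1 or without KOStra8 mouse 3. The CPM of Cox7b2 were at most 55.3 in HETStra8 and at least 55.8 in KOStra8 mice. Its groups did not overlap, and its log2 fold change of 0.14 ± 0.09 turned to -0.20 with the correction, its transcripts having a GC content of 36.7%. The log2 fold change of Cyct was 0.04 ± 0.09 and turned to -0.13, and that of Cox6b2 was -0.02 ± 0.08 and turned to 0.05. Cycs was at 21.1, 19.5 and 22.0 CPM and 20.2, 21.8 and 23.9 CPM, and its log2 fold change of 0.07 ± 0.11 turned to -0.11. For these 5 genes the direction of a difference between genotypes thus depended on the correction, except for Cox8c.

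**Figure D4:**
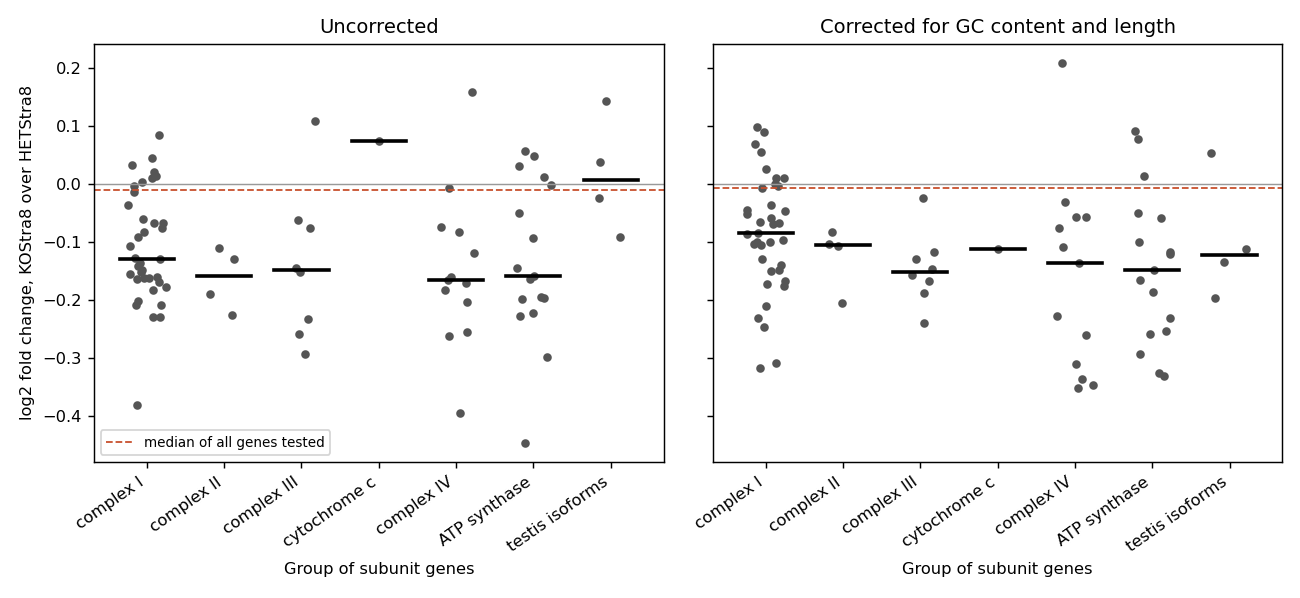
Log2 fold change of KOStra8 over HETStra8 of each tested gene (points) with the median of its group (bar), without (left) and with (right) the correction for GC content and length, and the median of all genes tested as a dashed line. The medians of complexes I to IV and ATP synthase lie between -0.17 and -0.08 in both panels, and those of cytochrome c and the testis isoforms go from 0.07 and 0.01 to -0.11 and -0.12.

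Ndufs5, a subunit of complex I, varied between mice in a way that crossed the genotypes, and was picked out after its values were seen. It had 809, 878 and 460 counts in HETStra8 and 473, 646 and 871 counts in KOStra8 mice (chr4:123712710-123718202, minus strand). HETStra8 mouse 3 and KOStra8 mouse 1 were low, at 13.8 and 13.5 CPM, and the other 4 mice lay between 22.3 and 26.1 CPM. A processed pseudogene of Ndufs5, BC002163 (chr16:42955631-42955949, plus strand), had 9, 9 and 252 counts in HETStra8 and 204, 12 and 4 counts in KOStra8 mice, so that the 2 mice with few reads on Ndufs5 were those with many on its copy. BC002163 holds 21.7% of the 50-base stretches of Ndufs5. The share of the summed counts that fell on the copy was 35.4% and 30.1% in these 2 mice and 0.457% to 1.82% in the other 4. Summed, the 2 genes had 818, 887 and 712 counts and 677, 658 and 875 counts, or 19.4 to 26.4 CPM. The log2 fold change of Ndufs5 was -0.14 ± 0.33 alone and -0.16 with the reads of its copy added. Cox6a2, with 0 and 1 counts, was also lowest in the same 2 mice, but it had at most 18 counts in any library. This was picked out after the values were seen, and a link to Ndufs5 was not tested.

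**Figure D5:**
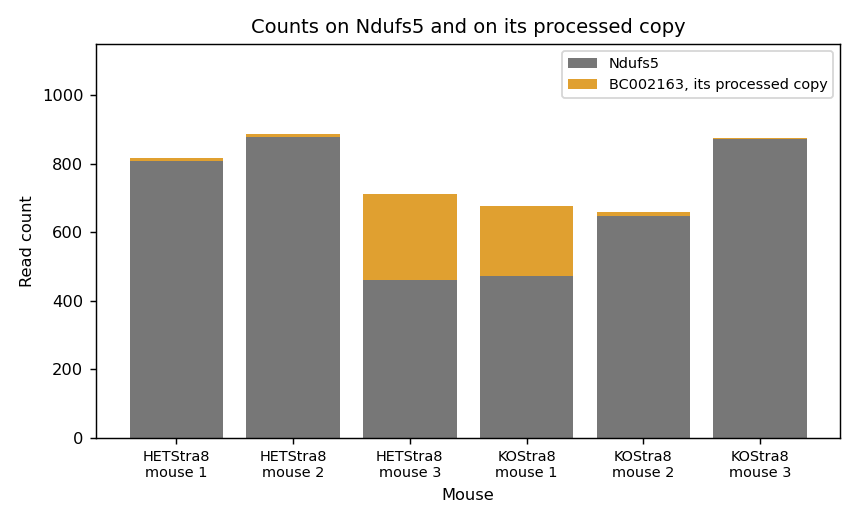
Counts on Ndufs5 (grey) and on its processed copy BC002163 (orange), stacked, in each of 6 mice. HETStra8 mouse 3 and KOStra8 mouse 1 have 252 and 204 counts on the copy, and the other mice have 4 to 12.

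Mitochondrial DNA encodes 13 further subunits, of which 12 were tested. None passed an adjusted p of 0.01 with edgeR, DESeq2 or limma-voom, and 2 were higher, where 7.13% of all genes were, and 0 lower at an unadjusted p of 0.05 with edgeR. With the correction the count went the other way, with 3 lower, where 3.76% of all genes were, and 0 higher. Their median log2 fold change was 0.16 with 10 of 12 above 0, and it turned to -0.22 with 11 of 12 below 0 under the correction. These transcripts have a median GC content of 37.4%, against 50.1% for the 84 nuclear genes. The most abundant of them by counts, mt-Co1, the catalytic core of complex IV, was picked out after its values were seen and had 99551, 92870 and 108170 counts in HETStra8 and 109600, 91387 and 118613 counts in KOStra8 mice, and its groups overlapped. Its log2 fold change of 0.06 ± 0.07 turned to -0.18 with the correction. The ends of the list were mt-Nd3, with 7 to 12 counts in HETStra8 and 16 to 18 counts in KOStra8 mice and a log2 fold change of 0.79 ± 0.53 (0.31 with the correction), and mt-Nd4l, with 10 to 15 and 5 to 11 counts and a log2 fold change of -0.63 ± 0.57. Selection of poly(A)+ RNA can take these transcripts unevenly, and their counts spanned 4 to 118613. Low counts, 4 to 158 per library, fell on mt-Co2, mt-Atp8, mt-Atp6, mt-Co3, mt-Nd3 and mt-Nd4l, which follow each other between mt-Co1 and mt-Nd4. Stretches shared with other genes were not searched for these genes, and the cause of their low counts was not tested.

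Factors that assemble the complexes and regulate mitochondrial biogenesis were read in the same test. With edgeR, none of 47 tested assembly factors of 48 listed passed an adjusted p of 0.01 or an unadjusted p of 0.05. Of all genes tested, 5.12% were lower and 7.13% higher at the latter. The median log2 fold change of the assembly factors was -0.05, or -0.02 without HETStra8 mouse 1 or 2. With the correction the median was -0.07, and Uqcc1, an assembly factor of complex III, was lower at an unadjusted p of 0.05, where 3.76% of all genes were. The ends were Taco1, a translational activator of mt-Co1, at -0.33 ± 0.21 and Hccs, which attaches heme to cytochrome c, at 0.41 ± 0.19. With the correction Taco1 was at -0.24 and Hccs at 0.17, and the ends were Ndufaf5, an assembly factor of complex I, at -0.32 and Cox17, a copper chaperone of complex IV, at 0.30. Uqcc1, Ndufaf5 and Cox17 were picked out after their values were seen. None of the 18 biogenesis regulators passed an adjusted p of 0.01 with edgeR, DESeq2 or limma-voom. At an unadjusted p of 0.05 with edgeR, 2 (Ppargc1a and Gabpa) were higher and 0 lower, where 7.13% and 5.12% of all genes were. With the correction 2 were higher, Ppargc1a again and Yy1 in place of Gabpa, and 0 lower, where 3.86% and 3.76% of all genes were. Yy1 was picked out after its values were seen. Ppargc1a, a coactivator of mitochondrial biogenesis, was at 2.10, 2.17 and 2.37 CPM in HETStra8 and 4.07, 4.80 and 2.90 CPM in KOStra8 mice. The groups did not overlap, and the log2 fold change was 0.82 ± 0.25 (edgeR quasi-likelihood test, adjusted p = 0.230), or 0.61 with the correction. Gabpa, whose product binds the ETS motif, was at 25.4, 26.0 and 33.6 CPM and 33.6, 33.7 and 37.9 CPM, with a log2 fold change of 0.31 ± 0.12, or 0.12 with the correction. Nrf1 was at 23.4 to 25.8 CPM and 23.6 to 26.2 CPM, and Tfam, which packages and transcribes mitochondrial DNA, was at 122 to 154 CPM and 144 to 151 CPM, both with overlap. The lowest of the list was Esrra, a nuclear receptor of energy metabolism, at -0.26 ± 0.13.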

How the data were processed

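For every mouse the authors deposited raw counts, the whole and unscaled numbers of reads on 55536 Ensembl genes. The study's methods describe directional libraries of poly(A)+ RNA. The submitters' processing notes name STAR 2.7.1a, featureCounts 1.6.0, HTSeq and the GRCm38 genome, without the role of each, and the strand setting of the counting is not given in the sources used here. All 55536 identifiers matched GENCODE mouse release 21, which gave symbols, exons, lengths and GC content.

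The test was the quasi-likelihood F test of edgeR 4.0.16 (R 4.3.3, robust fit) after filterByExpr and TMM scaling (factors 0.990 to 1.01), on genotype alone, with p adjusted over the 21465 genes tested. Alternatives used DESeq2 1.42.0 and limma-voom 3.58.1, other scalings and filters, a replicate block, and each mouse left out in turn. The common biological coefficient of variation was 0.160. CPM are TMM-normalized, log2 CPM used a prior count of 2, and SE is the log2 fold change divided by the root of F. The GC and length correction used loess offsets per library (span 0.3, genes above a log2 CPM of 2), and 8 genes without a GC value stayed uncorrected. TPM were computed from exon length. The fit was tested on simulated data.

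The members and lists were chosen with earlier results of these data known. Values by mouse were given for the testis isoforms and their counterparts, the proteolipid genes and, in each complex, the gene with the highest TPM and those with the highest and lowest log2 fold change, and in brief for isoforms of other tissues. Ndufs5, BC002163, Ndufb2, mt-Co1, Uqcc1, Ndufaf5, Cox17 and Yy1 were named after their values were seen. Mice within a group are separate animals, and an exact permutation test of 3 against 3 cannot give a p below 0.1. The limit given for 0 counts covers counting error only, while SE comes from the fit and includes variation between mice.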

Additional observations from a re-analysis of the deposited data

How the results depend on the processing

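No gene of the 84 passed an adjusted p of 0.01 under any of the 16 alternatives, DESeq2 and limma-voom included. The 10 genes lower at an unadjusted p of 0.05 became 2 to 25 when 1 mouse was left out and the 0 higher genes became 0 to 1, while 8 to 14 were lower under the other alternatives. The adjusted p of Atp5g2 ran from 0.0400 to 0.685 over its alternatives, with the lowest value without HETStra8 mouse 3. The labels do not say whether the mouse numbers pair the samples. The deviations of same-numbered mice correlated at -0.0601, -0.0525 and 0.108, and such values cannot settle whether the mice were paired. With the replicate block, 8 genes were lower at an unadjusted p of 0.05, the median of all members was -0.14, and no call changed. The medians of complexes I to IV and ATP synthase kept their sign under every alternative, but not their size, since without HETStra8 mouse 1 those of complexes I and II went from -0.13 to -0.05 and from -0.16 to -0.08. That of all members ran from -0.17 to -0.07 with 1 mouse left out, and from -0.16 to -0.05 with the correction as well, which was added after seeing the data.

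The correction for GC content and length turned several directions, and the cause was not tested. With it, and with the block besides, the values were -0.11 and -0.11 for Cycs, -0.12 and -0.12 for the median of the testis isoforms, -0.22 and -0.20 for that of the genes of mitochondrial DNA, 0.054 and 0.057 for Cox6b2, -0.20 and -0.19 for Cox7b2, -0.13 and -0.13 for Cyct, 0.056 and 0.059 for Ndufa4l2, -0.15 and -0.14 for Ndufv2, -0.12 and -0.11 for Uqcrb, and -0.29 and -0.28 for Atp5f1. Over the mice left out, the log2 fold change ran from -0.047 to 0.050 for the median of the testis isoforms, from -0.068 to 0.015 for Cox6b2, from -0.026 to 0.084 for Cyct, from -0.0084 to 0.051 for Ndufv2, from -0.41 to 0.88 for Cox6a2 and from -0.84 to 0.14 for Cox7a1, which was above 0 without HETStra8 mouse 2.

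Other lengths moved the levels. With the longest transcript in place of all exons, the mean share was 92.6% for Cox6b2, 97.1% for Cox7b2 and 96.5% for Cox8c, and without division by length it was 92.2%, 94.8%, 95.8% and, for Cyct, 67.9%. The longest transcript also raised Cox4i1 to 562 TPM, Atp5g2 to 41.6 TPM and Atp5g3 to 96.7 TPM and put Uqcrc1 above Uqcrq. The summed TPM of all members averaged 10420 with the longest transcript. Counts limit the rarest genes most, as for Cox6a2, Cox7a1, Cox4i2 and Ndufb2.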

Other observations

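Some of the subunit genes share sequence or position with other genes, which bears on how far their counts can be read. For 9 of the 87 genes more than 20% of the 50-base stretches of their transcripts also occur in another gene, and for 36 genes none do. An exon of another gene lies on the opposite strand at 26 of the 87. At Ndufa13, a subunit of complex I, 28.5% of the stretches are shared, most of them with Tssk6, a kinase gene of spermatids on the opposite strand that had 7512 to 9962 counts per library. At Ndufb6, 31.6% are shared with Smim27 on the opposite strand, which had 28 to 63 counts. Of the 84 genes tested, 10 differed by over 1.5-fold between the highest and the lowest mouse, besides Cox6a2, which had 0 counts in 1 library. Among them, Ndufa11 had 654, 606 and 416 counts in HETStra8 and 641, 412 and 483 counts in KOStra8 mice, and its high and low mice were spread over both genotypes. Ndufa11 was picked out after its values were seen.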
